A study of Mus musculus with 18 samples.

Results

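The arrays were read for 10 genes of mitochondrial shape: *Chchd10*, *Chchd2*, *Chchd3*, *Chchd6*, *Immt*, *Opa1*, *Mfn1*, *Mfn2*, *Dnm1l* and *Fis1*. The 10 genes were found by gene name among 37074 gene names on the array, with 23 of its 56605 probes. The set was selected on the genotype difference of *Chchd10* on HFD, measured in these arrays, so every genotype difference given here is a description without a test. The arrays held RNA of isolated ileum cells from 18 male C57BL6/J mice in 3 groups of 6, labelled iPGC1afl/fl CHOW, iPGC1afl/fl HFD and iPGC1a-/- HFD. All 3 groups carried the floxed *Ppargc1a* allele, the gene of the coactivator PGC1α. In iPGC1a-/- mice it was recombined by Cre under the Vil1 promoter, which is active in the intestinal epithelium and leaves the allele intact in the other cells of a preparation. The floxed controls had no Cre. Mice were 8 weeks old at the start and ate either chow or, as HFD, a milk fat diet with 42% of energy from fat and 0.2% cholesterol for 8 weeks. They were fasted and sacrificed at ZT 3. Mice without the gene on chow were not analysed here, and the genotype comparison exists on HFD only.

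The inner mitochondrial membrane is folded into cristae, which hold the respiratory chain. Crista junctions are kept by the MICOS complex, whose core scaffold is mitofilin, encoded by *Immt*, together with CHCHD3 and CHCHD6. CHCHD10 and its paralogue CHCHD2 are small twin cysteine proteins of the intermembrane space, and *CHCHD10* variants are a known cause of neuromuscular disease. Mitochondria fuse through the mitofusins, encoded by *Mfn1* and *Mfn2*, on the outer membrane and OPA1 on the inner membrane. They divide through DRP1, the dynamin encoded by *Dnm1l*, while FIS1 sits on the outer membrane. PGC1α is known for raising mitochondrial gene expression with the nuclear receptor ERRα and the factors NRF1 and GABPA.

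Promoter sequences are shown for the 3 genes on which the results turn, *Chchd10* and *Immt* for genotype and *Chchd6* for diet. They run from 250 bases before to 50 after the start of each gene, are credited to RefSeq on GRCm38.p6 and are written 5′ to 3′ on the strand of the gene, which is minus for *Chchd6*. The intervals are chr10:75932880-75933179, chr6:71831070-71831369 and chr6:89595603-89595902, in that order. Capitals mark matches, on either strand, to 6 motifs: TNAAGGTCA of ERR, the shorter nuclear receptor motif AAGGTCA, the palindromic consensus of NRF1, CCGGAAG of ETS factors such as GABPA, AAGATGGC of YY1 and the cyclic AMP element TGACGTCA. The ERR motif contains the shorter receptor motif, so the 2 can overlap.
Chchd10: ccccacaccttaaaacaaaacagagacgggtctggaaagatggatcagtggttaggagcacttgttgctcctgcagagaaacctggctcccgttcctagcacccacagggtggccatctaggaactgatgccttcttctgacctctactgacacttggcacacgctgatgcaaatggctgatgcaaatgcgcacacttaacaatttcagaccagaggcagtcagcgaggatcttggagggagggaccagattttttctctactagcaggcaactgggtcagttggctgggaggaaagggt
Immt: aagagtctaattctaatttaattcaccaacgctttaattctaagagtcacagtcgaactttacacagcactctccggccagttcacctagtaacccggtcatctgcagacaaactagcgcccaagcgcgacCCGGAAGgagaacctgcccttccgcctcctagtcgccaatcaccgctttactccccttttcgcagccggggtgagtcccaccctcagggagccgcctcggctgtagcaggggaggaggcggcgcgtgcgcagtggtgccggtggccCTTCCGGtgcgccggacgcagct
Chchd6: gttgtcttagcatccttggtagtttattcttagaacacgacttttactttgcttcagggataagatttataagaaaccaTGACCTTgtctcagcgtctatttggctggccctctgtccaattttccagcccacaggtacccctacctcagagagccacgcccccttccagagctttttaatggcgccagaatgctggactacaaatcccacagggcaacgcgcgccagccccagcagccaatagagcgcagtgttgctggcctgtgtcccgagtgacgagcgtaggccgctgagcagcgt

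The *Chchd10* window held none of the 6 motifs, and its GC content was 52.0%. The *Immt* window had a GC content of 59.3% and held 2 matches to the ETS motif, 1 on each strand. The *Chchd6* window, with a GC content of 53.0%, held 1 match to the receptor motif on the opposite strand. The table had promoters for 9 of the 10 genes, all but *Chchd2*. Among the other genes, the NRF1 motif was matched in *Opa1*, and the ETS motif in *Chchd3*, *Mfn1*, both promoters of *Fis1* and 1 of the 2 of *Dnm1l*. Of all 32851 promoters in the table, 1.28% held the ERR motif, 4.72% the receptor motif, 1.27% the NRF1 motif, 8.86% the ETS motif, 2.75% the YY1 motif and 1.79% the cyclic AMP element. A shorter form of the NRF1 motif, searched first and left out of the capitals, was held by 4.60% and matched *Immt* and *Opa1*. A match describes letters only and is no evidence of binding.

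Signals are given as log2 normalized signal, where a difference of 1 is a doubling. A probe's level depends on its own sequence, so levels were compared between arrays and not between genes. Kept were the 32726 probes that the scanner called well above background on 5 or more of the 6 arrays in some group, and a gene is represented by its brightest kept probe. A gene passed a comparison when that probe had an adjusted p of 0.05 or lower. All 10 genes had a kept probe, and 21 of their 23 probes were kept, each of them well above background on all 18 arrays apart from 1 flagged *Chchd10* spot. The other 2, 1 each of *Chchd6* and *Opa1*, were well above background on none. Of the spots, 56.3% to 62.3% per array reached that call, none was saturated, and arrays correlated at 0.967 to 0.997. All 10 enterocyte markers were measured, among them *Vil1*, with group means of 16.29 to 16.56. *Fabp6*, the ileal bile acid binding protein, had group means of 16.77 to 17.14. The labels name ileum cells, and these values show that ileal enterocytes were among them. Markers of other cell types were measured too and are given below. Both *Ppargc1a* probes lie at transcript positions 2473 and 2964, in the downstream part of the mRNA, outside the deleted early exons, and so check nothing about the deletion. The brighter one averaged 10.94 ± 0.46 (SD, n = 6) on chow, 11.38 ± 0.07 in floxed mice on HFD and 11.67 ± 0.26 in iPGC1a-/- mice, so it was not lower in the arrays labelled iPGC1a-/-, and directions by genotype refer to the labels. Its lowest chow array was replicate 4.

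*Chchd10* had the largest genotype difference of the 10 genes. Its single probe lies at mm9 chr10:75400362-75400421 on the plus strand, at position 830 of NM_175329. On chow its signal ran from 14.66 to 15.24 with a median of 15.13. In floxed mice on HFD it ran from 15.10 to 15.49 with a median of 15.12. In iPGC1a-/- mice on HFD it ran from 14.06 to 14.77 with a median of 14.45. Every iPGC1a-/- array therefore lay below every measured floxed array on the same diet, and 1 chow array, replicate 4, lay within the range of the iPGC1a-/- arrays. The group means were 15.05 ± 0.21 (SD, n = 6) on chow, 15.21 ± 0.16 (SD, n = 5) in floxed mice on HFD and 14.46 ± 0.26 (SD, n = 6) in iPGC1a-/- mice. The first 2 lay within their spread of each other, and the genotypes differed by -0.74 with an SE of 0.13, or -40.2% of the signal. In bulk RNA, fewer cells of a type and less RNA per cell cannot be told apart.

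The floxed HFD value rests on 5 arrays because the *Chchd10* spot of replicate 2 was flagged as non-uniform and dropped from the fit. That spot had a raw median signal of 57 over a local background of 17, while its mean pixel signal was 166. On the other 5 arrays of the group the raw median ran from 29916 to 42717.5, and the authors' own table has values for 17 of the 18 arrays too. Keeping the flagged spot, an alternative chosen after seeing the data, turned the genotype difference to 0.79 with an SE of 1.09. Before normalization between arrays the groups also overlapped, since the highest iPGC1a-/- array stood at 15.17 and the lowest floxed array at 14.87. After each of the 6 other normalizations and filters in which *Chchd10* was measured and the flagged spot left out, the groups did not overlap. Within the 3 slides, each holding 2 arrays of every group, the difference was -0.53, -0.70 and -0.94. The first of these values rests on 1 floxed HFD array, because the flagged spot was on that slide. Without iPGC1a-/- replicate 6, the lowest array, it was -0.66, and without floxed HFD replicate 6, the highest, it was -0.67.

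**Figure D1:**
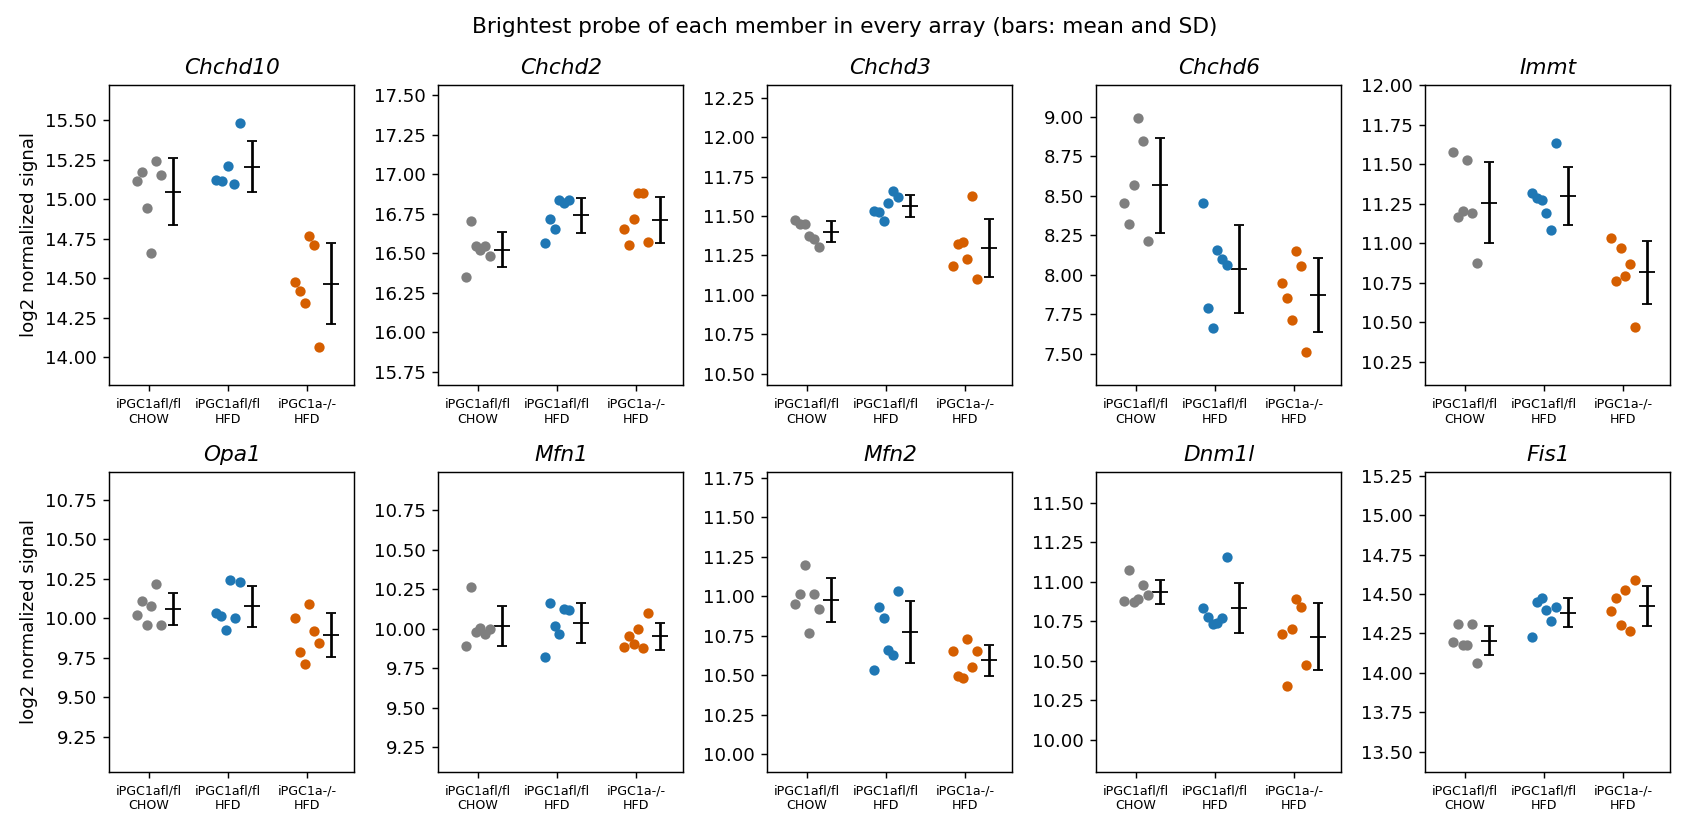
Log2 normalized signal of the brightest probe of each of the 10 genes (vertical axis, every panel spanning the same number of log2 units) in each array of the 3 groups (horizontal axis); points are arrays and bars the mean and SD. The 6 iPGC1a-/- arrays of *Chchd10* reach at most 14.77, below the 5 floxed HFD arrays, and those of *Immt* at most 11.03, while the other genes overlap.

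By diet, *Chchd10* differed by 0.16 between floxed mice on HFD and on chow, with an SE of 0.13. The 95% interval ran from -0.11 to 0.42 and the adjusted p was 0.397 (limma). The floxed HFD arrays of this comparison are also those of the contrast for which *Chchd10* was picked. Without chow replicate 4, the lowest chow array, the difference was 0.08, and without floxed HFD replicate 6 it was 0.09.

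Across the 10 genes, 9 had a lower mean in iPGC1a-/- than in floxed mice on HFD, all but *Fis1*. The median difference was -0.18, against 0.01 over all 21542 genes, of which 48.1% were lower. Under both scalings to the 75th percentile *Fis1* was lower as well. *Chchd10* was the only one of the 10 among the 49 genes that passed the genotype comparison (0.227% of genes), and 2 of the 10, *Chchd10* and *Immt*, did not overlap between genotypes (0.966% of genes). As the genes were chosen with this contrast known, nothing is read from these counts. The same arrays were extreme for several genes. Floxed HFD replicate 6 was the highest of its group for *Chchd10*, *Chchd2*, *Immt*, *Mfn2* and *Dnm1l*, and iPGC1a-/- replicate 6 the lowest for *Chchd10*, *Chchd3*, *Chchd6* and *Immt*. By diet 0 of the 10 passed higher and 1 passed lower on HFD, where 10.4% of all genes passed higher and 14.2% lower, and none of the 10 lacked overlap between the diets, as 10.4% of genes did.

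Among the MICOS subunits of the 10 genes, *Immt* had the largest genotype difference. The signal of its brightest probe ran from 10.88 to 11.57 on chow with a median of 11.20, from 11.09 to 11.63 in floxed mice on HFD with a median of 11.28, and from 10.47 to 11.03 in iPGC1a-/- mice with a median of 10.83. Every iPGC1a-/- array was thus below every floxed HFD array, by a narrow gap, while the chow arrays spread over both. The genotype difference was -0.48 with an SE of 0.12, and within the slides it was -0.37, -0.67 and -0.41. The 3 *Immt* probes did not give the same value. The probe at position 2230 of NM_029673 differed by 0.00 with an SE of 0.10, and a dimmer probe at mm9 chr6:71805061-71805120, designed to another transcript, by -0.28 with an SE of 0.09. The brightest probe lies at position 668 of NM_001253689, and its mm9 interval of chr6:71807005-71811018 is longer than the probe. By diet *Immt* differed by 0.04 (95% interval -0.21 to 0.29, limma adjusted p = 0.842).

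*Chchd3*, which encodes the MICOS subunit that binds mitofilin, had 4 kept probes, all with a lower mean in iPGC1a-/- mice. Its brightest probe ran from 11.47 to 11.66 in floxed mice on HFD and from 11.10 to 11.63 in iPGC1a-/- mice, where replicate 5 alone lay among the floxed arrays. The genotype difference of that probe was -0.26 with an SE of 0.08, and those of the other probes were -0.23, -0.32 and -0.41. The probe with the largest difference, at mm9 chr6:32802057-32802116, ran from 7.97 to 8.21 in floxed mice on HFD and from 7.49 to 7.80 in iPGC1a-/- mice, so these groups did not overlap. It and its neighbour with the difference of -0.32 belong to the cDNA AK145337, and the brighter pair to NM_025336. By diet the brightest probe differed by 0.16 (95% interval from just below 0 to 0.33, limma adjusted p = 0.143).

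*Chchd6*, the third MICOS gene, was the 1 gene of the 10 that passed the diet test. Its signal ran from 8.22 to 8.99 on chow with a median of 8.51, from 7.66 to 8.45 in floxed mice on HFD with a median of 8.08, and from 7.51 to 8.15 in iPGC1a-/- mice with a median of 7.90. The chow arrays were the highest group, though 1 HFD array, replicate 1, stood among them. The mean fell by 0.53 on HFD with an SE of 0.15 (limma adjusted p = 0.0123), and within the slides the differences were -0.57, -0.47 and -0.55. The genotype difference was -0.17 with an SE of 0.15. The probe is at mm9 chr6:89333158-89333217 on the minus strand, in NM_025351.

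Markers of other cells moved with diet in the same arrays, where 10.4% of all genes passed higher and 14.2% lower. Of the T cell and intraepithelial lymphocyte markers 9 of 10 were lower on HFD, and their summed linear signal ran from 16059 to 52272 on chow, from 8031 to 12558 in floxed mice on HFD and from 9748 to 15191 in iPGC1a-/- mice. All 8 B and plasma cell markers were lower too, with sums of 1902 to 5306, 338 to 1629 and 587 to 1266. All 7 goblet cell markers were lower, with sums of 429932 to 569683, 188031 to 463010 and 284485 to 414446. Of the crypt and dividing cell markers 4 of 8 were lower, with sums of 7749 to 13457, 5630 to 10015 and 6048 to 7928. Their part in the *Chchd6* difference and in the diet differences of the partner genes below was not tested. The counts of the other lists were as follows. Of the macrophage and dendritic cell markers 3 of 6 were lower, of Paneth cell markers 2 of 6, of enteroendocrine markers 2 of 8 and of stromal markers 0 of 7, while 1 of 5 nerve and glia markers was higher and 1 enterocyte marker passed in each direction. No marker in any of the 10 lists passed between genotypes. As 0.227% of all genes did, nothing is read from that count. The summed signal of each list overlapped between the genotypes on HFD. All 10 T cell markers had a higher mean in iPGC1a-/- mice, with a median difference of 0.24, where 48.1% of all genes were lower. B and plasma cell and goblet cell markers leaned the same way, with medians of 0.27 and 0.16 and 1 marker lower in each list. All 6 Paneth cell markers were lower, with a median of -0.07. The medians of the other lists ran from -0.24 to 0.09. Stromal sums ran from 5638 to 10881, with *Col1a1*, *Lum* and *Pdgfra* not kept.

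**Figure D2:**
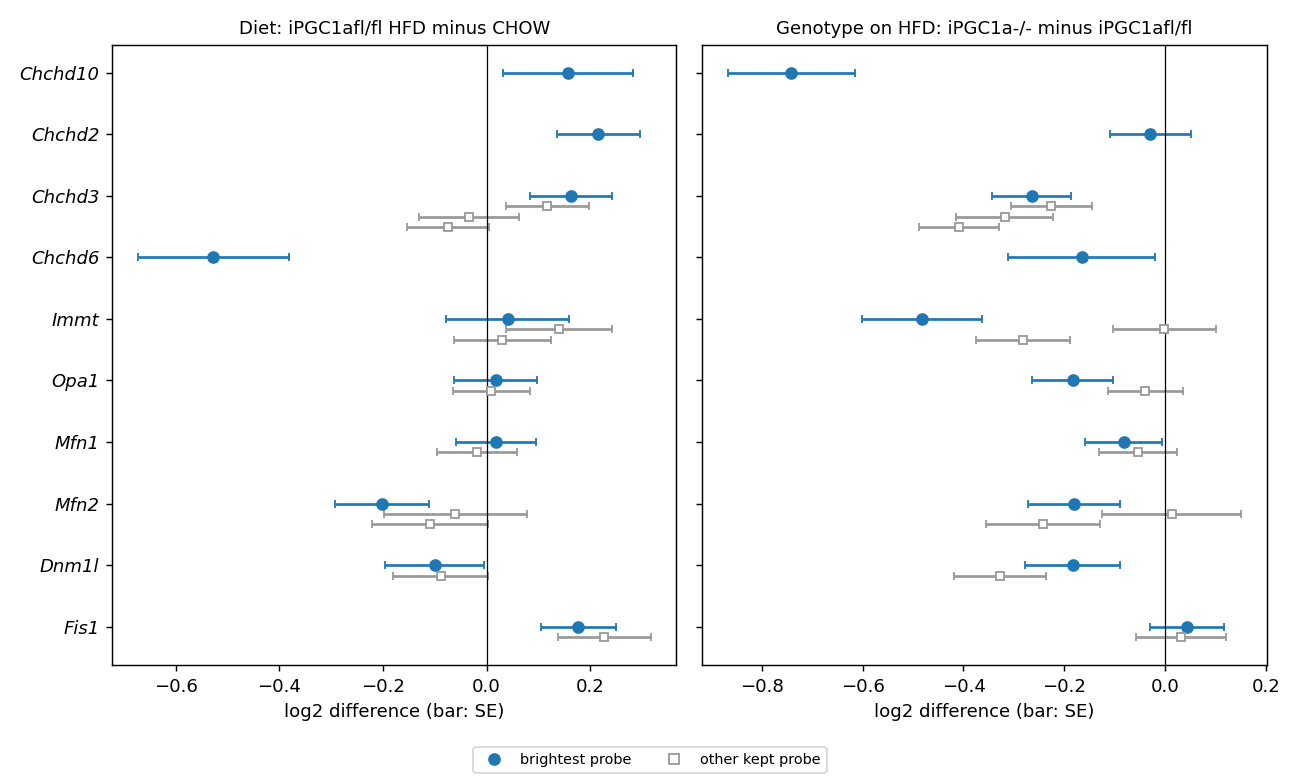
Log2 difference of every kept probe of the 10 genes (vertical axis) by diet in floxed mice, left, and by genotype on HFD, right (horizontal axes); filled circles are the brightest probe, open squares the other kept probes and bars the SE. *Chchd6* lies at -0.53 by diet, and *Chchd10* at -0.74 by genotype with the brightest *Immt* probe at -0.48.

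*Chchd2*, the paralogue of *Chchd10*, did not share its pattern. Its probe, at mm9 chr5:130357110-130357169, ran from 16.35 to 16.70 on chow, from 16.57 to 16.84 in floxed mice on HFD and from 16.55 to 16.88 in iPGC1a-/- mice, and the ranges on HFD covered each other. The genotype difference was -0.03 with an SE of 0.08. By diet it differed by 0.22 (95% interval 0.05 to 0.38, limma adjusted p = 0.0583), just short of the threshold, which it passed under other settings. A *Chchd2* pseudogene is annotated in the mouse genome, and whether part of this signal comes from another transcript was not tested.

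The fusion genes had small differences. *Opa1*, probed at mm9 chr16:29654613-29654672, ran from 9.95 to 10.22 on chow, from 9.93 to 10.24 in floxed mice on HFD and from 9.71 to 10.09 in iPGC1a-/- mice, so the groups overlapped. The genotype difference was -0.18 with an SE of 0.08, while its other kept probe differed by -0.04, and by diet *Opa1* differed by 0.02 (limma adjusted p = 0.902). *Mfn2*, probed at mm9 chr4:147247695-147247748, ran from 10.77 to 11.20 on chow, from 10.53 to 11.03 in floxed mice on HFD and from 10.48 to 10.73 in iPGC1a-/- mice, so its groups descended in that order with overlap at each step. Its diet difference was -0.20 with an SE of 0.09 (limma adjusted p = 0.116), and its genotype difference -0.18 with an SE of 0.09. Its other probes differed by 0.01 and -0.24 between genotypes. *Mfn1*, probed at mm9 chr3:32476215-32476274, ran from 9.82 to 10.26 over all 18 arrays. It differed by 0.02 by diet (limma adjusted p = 0.895) and by -0.08 between genotypes, with SEs of 0.08, and the 95% diet interval ran from -0.14 to 0.18.

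Both division genes had small genotype differences, with intervals that spanned 0 for their brightest probes. The brightest *Dnm1l* probe, at mm9 chr16:16312363-16312422, ran from 10.87 to 11.08 on chow, from 10.74 to 11.15 in floxed mice on HFD and from 10.34 to 10.89 in iPGC1a-/- mice, where 2 of the 6 arrays lay within the floxed range. The genotype difference was -0.18 with an SE of 0.09. A dimmer probe differed by -0.33 with an SE of 0.09, and by diet the brightest differed by -0.10 (limma adjusted p = 0.478). *Fis1*, probed at mm9 chr5:137442037-137442096, ran from 14.06 to 14.31 on chow, from 14.23 to 14.47 in floxed mice on HFD and from 14.27 to 14.59 in iPGC1a-/- mice. Its genotype difference was 0.04 with an SE of 0.07, and both probes stood higher on HFD, by 0.18 and 0.23, with limma adjusted p values of 0.086 and 0.0728.

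Lists of partners were counted in the same way. Of 80 genes in 5 lists 79 were measured, and 7 passed higher and 6 lower by diet, against 10.4% and 14.2% of all genes, with a median diet difference of 0.03 beside 0.00 over all genes. Neither count stood above the general rate. The lists were drawn up with results of these arrays known, and their genotype differences are a description.

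The MICOS and cristae partners, 19 genes such as the prohibitins and the sorting machinery, had a median genotype difference of -0.15, and 15 of 19 had a lower mean in iPGC1a-/- mice, against 48.1% of all genes. Among them 2 passed the genotype comparison, which 0.227% of all genes passed. *Apoo*, which encodes the MICOS subunit MIC26, averaged 11.16 ± 0.10 (SD, n = 6) in floxed mice on HFD and 10.67 ± 0.18 in iPGC1a-/- mice, a difference of -0.49 with an SE of 0.08. *Mtx2*, encoding metaxin 2 of the outer membrane, averaged 9.72 ± 0.06 and 9.18 ± 0.18, a difference of -0.54 with an SE of 0.08. For each of these genes a second probe was lower as well, by differences of -0.37 and -0.48. By diet, *Phb* alone passed, with a difference of -0.41 and an SE of 0.11 (limma adjusted p = 0.0126). It encodes prohibitin, a ring-forming scaffold of the inner membrane.

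The CHCH domain relatives were 20 genes of proteins with the same cysteine fold, among them intermembrane space proteins and respiratory subunits. Of the 20 genes 3 were higher and 1 lower on HFD, against 10.4% and 14.2% of all genes. *Chchd7* differed by 0.45 (SE 0.07, limma adjusted p = 0.00019), and *Cox19*, which encodes a cytochrome oxidase assembly factor, by 0.40 (SE 0.07, adjusted p = 0.000312). *Chchd5* differed by 0.29 (adjusted p = 0.00372), and *Cmc2*, another assembly factor, by -0.34 (adjusted p = 0.0433). The median genotype difference was -0.10, and 16 of 20 means were lower in iPGC1a-/- mice, against 48.1% of all genes. The 1 gene of the list that passed between genotypes, as 0.227% of all genes did, moved the other way. *Cox6b2*, the testis form of a cytochrome oxidase subunit, averaged 8.87 ± 0.17 (SD, n = 6) in floxed mice on HFD and 9.45 ± 0.21 in iPGC1a-/- mice.

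Of the 7 genes of cardiolipin synthesis, the lipid particular to the inner membrane, 2 were lower on HFD and none higher. Of all genes 14.2% passed lower and 10.4% higher. *Pgs1*, the phosphatidylglycerophosphate synthase, differed by -0.62 with an SE of 0.19 (limma adjusted p = 0.0205), with a chow SD of 0.60. *Crls1*, cardiolipin synthase, differed by -0.34 with an SE of 0.09 (limma adjusted p = 0.0123). Their genotype differences were 0.23 and 0.10. Of the 11 membrane and matrix proteases, which include the OPA1 processing enzymes OMA1 and YME1L, only *Clpp*, the matrix protease subunit, passed by diet, at -0.24 (limma adjusted p = 0.0462).

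The other fusion and fission genes had the largest diet differences, 4 higher and 1 lower among 22 measured. Of all genes 10.4% passed higher and 14.2% lower. *Bnip3*, a mitophagy receptor, rose from 9.75 ± 0.29 (SD, n = 6) to 11.22 ± 0.08, a difference of 1.48 with an SE of 0.12 (limma adjusted p = 1.12e-07), and averaged 11.35 ± 0.25 in iPGC1a-/- mice. *Fam73b*, now named *Miga2* and encoding a mitoguardin that promotes fusion, rose by 0.66 with an SE of 0.10 (limma adjusted p = 5.87e-05). *Trak1*, an adaptor for mitochondrial transport, rose by 0.40 (limma adjusted p = 0.023). *Inf2*, an actin nucleator that acts at division sites, fell by 1.49 with an SE of 0.22 (limma adjusted p = 5.6e-05). The fifth gene, *Rhot2*, named after its values were seen, rose by 0.27 (limma adjusted p = 0.00857). Of its 2 other kept probes 0 passed by diet. None of the 22 passed between genotypes, where 0.227% of all genes did, and the median genotype difference was -0.13. In the list 15 means were lower in iPGC1a-/- mice, against 48.1% of all genes. *Mtfp1*, also named after its values were seen, differed by -0.49 (SE 0.11) and *Rhot2* by -0.28 (SE 0.07). Neither overlapped between genotypes, as was the case for 0.966% of genes. The other kept probe of *Mtfp1* differed by 0.16, and the 2 others of *Rhot2* by -0.06 and 0.11.

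**Figure D3:**
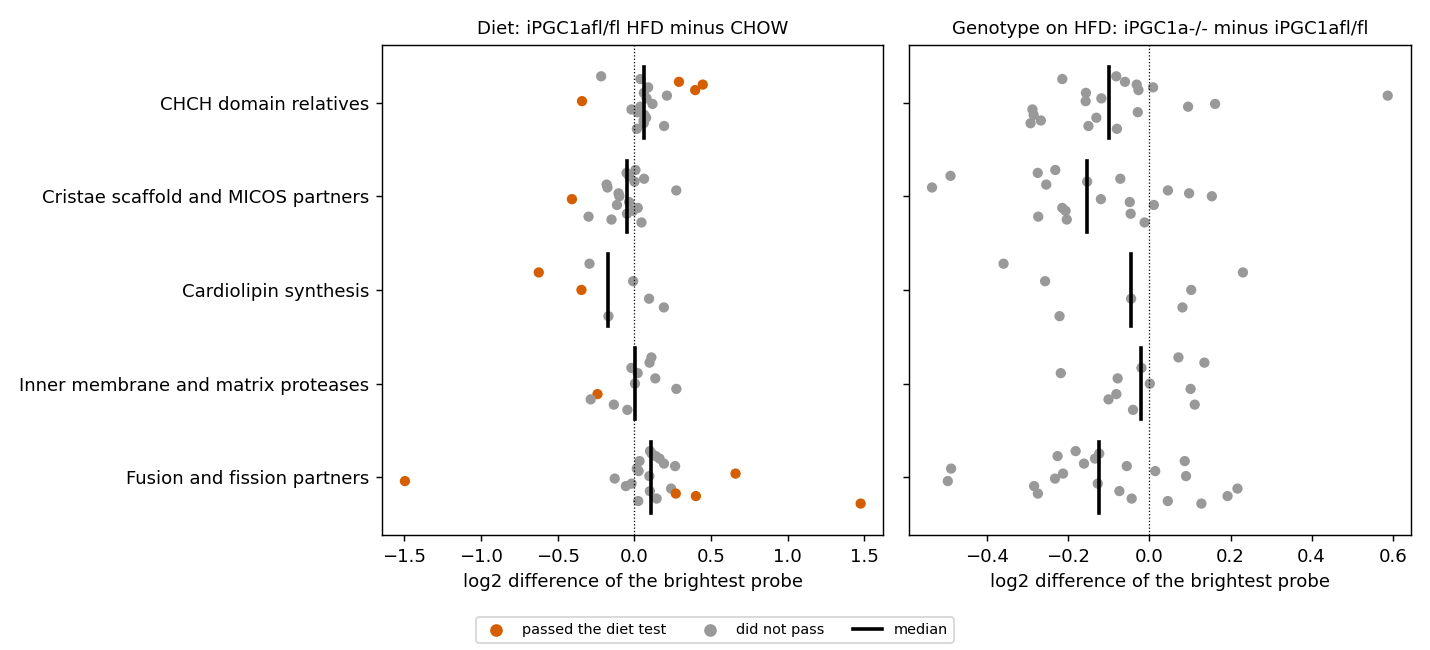
Log2 difference of the brightest probe of each of the 79 measured partner genes (points) in the 5 lists (vertical axis), by diet in floxed mice, left, and by genotype on HFD, right (horizontal axes); black lines are list medians and orange points passed the diet test. The list of MICOS partners has its genotype median at -0.15, and the fusion and fission list reaches from -1.49 to 1.48 by diet.

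The genes whose pattern was most like that of *Chchd10* over the 17 arrays with a value were *Apoo*, with a Pearson r of 0.93, *Cox5a* and *Cox7c* with 0.92, *Sdhd* with 0.91, *Cox7a2* with 0.90 and *Ndufv1* with 0.89. Apart from *Apoo* these encode subunits of respiratory complexes. The arrays of 1 genotype group share a lower level of both genes, so r was also taken after each group's mean was removed. It was then 0.82 for *Apoo*, 0.78 for *Cox5a*, 0.75 for *Cox7c*, 0.78 for *Sdhd*, 0.70 for *Cox7a2* and 0.71 for *Ndufv1*. These genes were picked for the highest r of 21541 rows in the same arrays, so the second r is a description and no separate check. The genotype differences of these genes ran from -0.49 to -0.24. Among rows with a gene symbol, the lowest r were those of *Slc1a7* (-0.84), *Hist1h2ba* (-0.82) and *Maz* (-0.80).

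Within the 10 genes, *Dnm1l* tracked *Chchd10* most closely, with an r of 0.76 that was 0.69 with group means removed. *Opa1* followed with 0.73 and 0.53. *Immt* had 0.68, which became 0.15 with group means removed, so its likeness lay between the groups rather than within them. *Chchd3* had 0.67 and 0.39, *Mfn2* 0.59 and 0.41, and *Chchd6* 0.45 and 0.13. *Mfn1* had 0.21 and -0.02, and *Fis1* -0.36 and -0.04. *Chchd2* was the reverse case of *Immt*, with 0.08 over all arrays and 0.53 with group means removed.

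**Figure D4:**
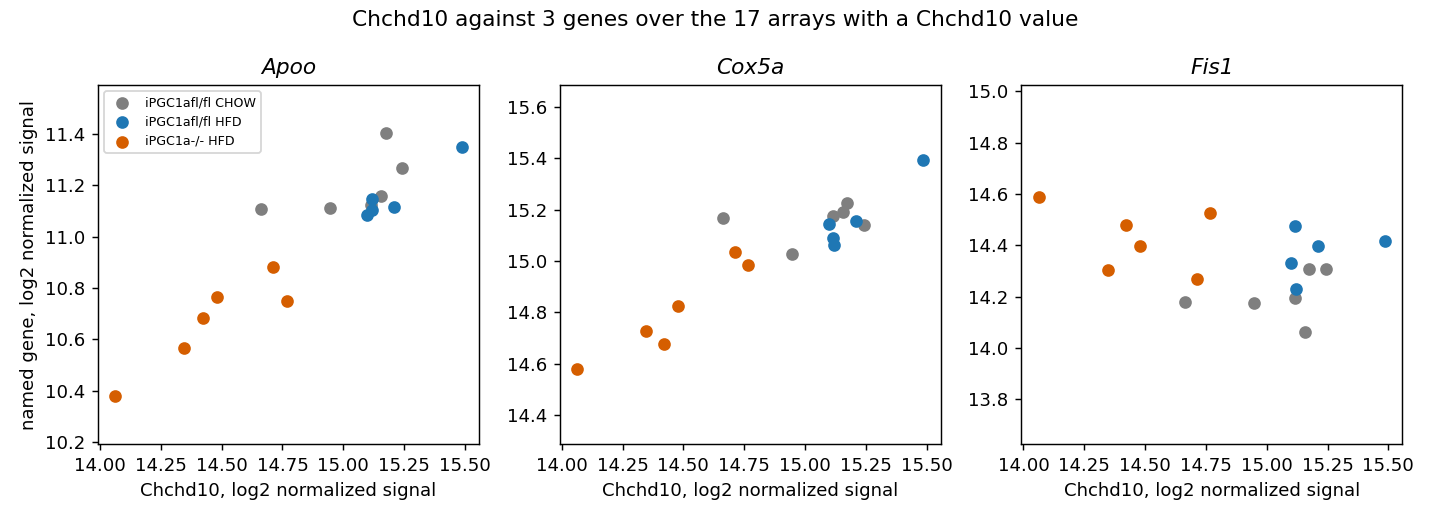
Log2 normalized signal of *Apoo*, *Cox5a* and *Fis1* (vertical axes, equal spans) against that of *Chchd10* (horizontal axis) over 17 arrays; each point is 1 array, coloured by group. *Apoo* (r = 0.93) and *Cox5a* (r = 0.92) rise with *Chchd10* and the iPGC1a-/- arrays sit at the low end, while *Fis1* has an r of -0.36.

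The genes beside *Chchd10* on chromosome 10 had smaller genotype differences than *Chchd10*. Of 26 neighbours measured within 500 kb on mm9, none passed between genotypes, where 0.227% of all genes did, so little can be read from that count. A lower mean in iPGC1a-/- mice was found for 8 of them, against 48.1% of all genes. The largest difference was a rise, that of *Gstt1*, at 0.56 with an SE of 0.19. The largest fall was that of *Dip2a*, at -0.32 with an SE of 0.09. The nearest, *Gm867*, 1.61 kb away, differed by -0.11. By diet 7 neighbours passed higher and 4 lower, against 10.4% and 14.2% of all genes. The higher ones were the sodium glucose family transporters *Slc5a4b*, by 2.39, and *Slc5a4a*, by 1.03, with *Susd2* by 1.49, *Ggt1* by 0.84, *Upb1* by 0.81, *Dip2a* by 0.31 and *Ddt* by 0.27. *Vpreb3*, a B cell gene, differed by -1.68, *Derl3* by -0.79 and *Mif* by -0.65, and the fourth was a transcript known only by its identifier.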

How the data were processed

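Ileum cells of 18 mice were measured on one-colour arrays, 6 mice in each of the 3 groups, which were taken from the sample labels. The authors deposited spot intensity values from Agilent Feature Extraction 10.10.1.1, with flags and no normalization between arrays, and a table of normalized log2 values for 33095 probes. Per the labels, 200 ng of RNA was labelled per sample.

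From the intensity values, control spots and outlier spots were left out, spots of a probe averaged, and the log2 median signal normalized by a smooth quantile method written after qsmooth, with a window of 0.05, run in R 4.3.3. The methods also correct for washing bath and labelling serial, which the labels used here do not give. limma 3.58.1 (lmFit, eBayes) was fitted once to all 18 arrays with a mean per group, and p-values were adjusted over 32726 probes by the Benjamini-Hochberg method. The fit was checked on simulated data. The number of arrays limits the precision: the median SE of a difference was 0.11. Slide, normalization, background, filter and probe choice were varied.

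The 10 genes and all lists were chosen with earlier results of these data known. Named genes are the 10 genes, *Ppargc1a*, per partner list the 4 largest diet differences among genes that passed and those passing between genotypes, the 6 genes most and 3 least like *Chchd10*, and its neighbours that passed. *Rhot2*, *Mtfp1* and *Gstt1* were added after their values were seen. Probe coordinates come from the array design, on mm9, and promoters are RefSeq's, on GRCm38.p6. Figures were drawn with matplotlib 3.10.9.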

Additional observations from a re-analysis of the deposited data

Results flagged for a closer look

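Of the 30 sets of arrays, each 1 gene in 1 group, 3 had an array far from the others, where chance gives about 1 in 20 such sets. *Chchd10* in floxed HFD replicate 6 was at 15.49, with the nearest array at 15.21. In the same array *Dnm1l* was at 11.15, with the nearest at 10.84. *Mfn1* in chow replicate 2 was at 10.26, with the nearest at 10.01.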

How the results depend on the processing

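The genotype difference of *Chchd10* ran from -0.80 to -0.74 under 11 alternatives, which covered normalization, background, filters, blocks and variance models, and from -0.81 to -0.66 with 1 array left out. With flagged spots kept it was 0.79, and the diet difference was -1.38. The filter on all arrays left *Chchd10* out because of its flagged spot. *Chchd6* passed by diet at the 0.05 threshold under every alternative processing and with each array left out (limma adjusted p from 0.00283 to 0.0438). It did not pass the 2 stricter thresholds. Its difference of -0.53 was short of a 1.5 fold change, and its limma adjusted p of 0.0123 was above 0.01. After subtracting background and scaling to the 75th percentile, *Chchd2*, *Chchd3* and *Fis1* passed as well (adjusted p = 0.0221, 0.0208 and 0.0288), and *Dnm1l* turned to 0.00802. Of the diet calls 42.2% were higher, against 55.6% with that signal and 58.6% with the median signal on the same scale. *Chchd2* passed in 7 of these alternatives. With single arrays left out, the diet differences near 0 of *Immt*, *Opa1* and *Mfn1* changed sign, from -0.0323 to 0.0996, -0.0351 to 0.0564 and -0.0169 to 0.0747. Genes changed by diet numbered 5294, 1815 with a fold change above 1.5 and 3019 at an adjusted p of 0.01, and genes differing by genotype 49, 29 and 18. Partner genes passing by diet numbered 13, 4 and 7. With 1 array left out these counts ran from 4062 to 5820, 26 to 60 and 9 to 15. The genotype count was lowest without iPGC1a-/- replicate 3 (26), floxed HFD replicates 1 and 4 (27) and floxed HFD or iPGC1a-/- replicate 2 (30). Replicate numbers were not taken as pairs in the main fit. Same-numbered deviations correlated from -0.19 to 0.33, which cannot decide pairing because no differently numbered arrays were set beside them. With the replicate block 5910 genes changed by diet, 36 differed by genotype, 17 partner genes passed, and the *Chchd10* differences were 0.17 and -0.75.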
